A study of Arabidopsis thaliana with 4 samples.

Results

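*CYP71B15*, *NATA1* and *BGLU31* encode enzymes grouped here under defense metabolism, *BGLU31* by its enzyme family alone. These genes are 3 of the 156 in the deposited table of mRNAs up-regulated in *msil2/4* inflorescence stems, out of 234 listed in either direction. They were picked by locus from that table, so the difference between genotypes that put them there is described below without a test. Poly(A) RNA was taken from the stem base of mature *Arabidopsis thaliana* plants and sequenced in 4 libraries. A pair came from *msil2/4*, a double mutant obtained by crossing T-DNA insertion lines of the Musashi-like RNA-binding protein genes *MSIL2* and *MSIL4* (labelled a knockdown in the sample records), and a pair from wild-type Col-0 plants. All plants grew in long days without any treatment, and the number of plants behind a library was not given in the sources used here. *MSIL2* and *MSIL4* are in neither table, so the genotype labels could not be checked on these values. Only genes called different are listed, so the tissue label was not checked on marker genes. Values are RPKM (reads scaled by transcript length in kilobases and by mapped reads in units of 1000000) as the authors deposited them, for each library.

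The 3 enzymes stand in separate branches of metabolism. CYP71B15, also named PAD3, is the cytochrome P450 of the last step of camalexin synthesis, the main indolic phytoalexin of Arabidopsis, which is made from tryptophan after pathogen attack. NATA1 transfers an acetyl group to ornithine, giving N-delta-acetylornithine, and can also acetylate the polyamine putrescine. Its gene is known as jasmonate-inducible in leaves. BGLU31 belongs to the glycoside hydrolase family of plant beta-glucosidases, enzymes that release glucose from glucosides, among them stored defense compounds.

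In RefSeq annotation of TAIR10.1, *CYP71B15* (AT3G26830) lies on chromosome 3 from 9887917 to 9889791 on the plus strand, with 2 exons and a protein of 490 residues. *NATA1* (AT2G39030) lies on chromosome 2 from 16298110 to 16299205 on the plus strand and is a single exon encoding 228 residues. *BGLU31* (AT5G24540) lies on chromosome 5 from 8384681 to 8388028 on the minus strand, with 13 exons in its longest transcript and a protein of 534 residues. Its model is marked as partial and begins at the coding start, so no leader is annotated and the position of its transcription start is not known from this annotation.

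The sequence before each gene is shown because the 3 mRNAs are listed together, to let its content be read beside their levels. In windows of 250 bases before the annotated start, both strands were searched for the W-box core bound by WRKY factors (TTGAC), the G-box (CACGTG), the as-1 core of TGA factors (TGACG) and the GCC-box of ERF factors (GCCGCC). Capitals mark matches to these motifs in the windows of *NATA1* and *BGLU31*, and copies of a repeated unit of 8 bases in that of *CYP71B15*. GTCAA is the W-box core read on the other strand. For *NATA1* the window is chr2:16297860-16298109 and for *CYP71B15* chr3:9887667-9887916 (TAIR10.1, plus strand, RefSeq). For *BGLU31* only the stretches around the matches are given, chr5:8388215-8388235 and chr5:8388029-8388048 (minus strand).
CYP71B15: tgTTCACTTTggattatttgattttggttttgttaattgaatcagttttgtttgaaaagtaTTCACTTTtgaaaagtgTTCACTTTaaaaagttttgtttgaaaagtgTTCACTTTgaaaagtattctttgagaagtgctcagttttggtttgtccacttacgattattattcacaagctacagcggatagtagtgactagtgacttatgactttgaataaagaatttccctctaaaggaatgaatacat
NATA1: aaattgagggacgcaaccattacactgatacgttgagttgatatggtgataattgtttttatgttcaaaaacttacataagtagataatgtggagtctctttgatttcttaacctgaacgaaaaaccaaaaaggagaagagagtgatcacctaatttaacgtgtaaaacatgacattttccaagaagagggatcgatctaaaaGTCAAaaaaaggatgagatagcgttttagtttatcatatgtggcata
BGLU31 distal: ccagttcaGTCAAgaaatgat
BGLU31 proximal: aactaattaaCGTCAAggaa

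The *NATA1* window held a single W-box core, 47 to 43 bases before the start. The *BGLU31* window held W-box cores 199 to 195 and 9 to 5 bases before the start, the second of which overlaps an as-1 core at 10 to 6 bases. The *CYP71B15* window held none of the 4 motifs, which says nothing about sequence further upstream. Over the windows of 27444 protein-coding genes, 44.9% held a W-box core, 18.6% an as-1 core, 6.49% a G-box and 1.87% a GCC-box, so a W-box core in a window of this length is common. The *CYP71B15* window instead held 4 copies of TTCACTTT on the printed strand, between 248 and 135 bases before the start. The repeat was noticed by eye and counted afterwards. Of the 27444 windows, 473 held at least 1 copy, and *CYP71B15* was the only gene with 4.

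*CYP71B15* mRNA was far more abundant in *msil2/4*. It was at 77.5 and 52.5 RPKM in the *msil2/4* libraries (replicates 1 and 2), against 1.47 and 4.54 RPKM in the Col-0 libraries. The genotypes did not overlap, and the lowest *msil2/4* library stood 11.6 times above the highest Col-0 library. The means were 65.0 ± 17.7 RPKM in *msil2/4* and 3.01 ± 2.17 RPKM in Col-0 (SD, n = 2 each), a ratio of 21.6. On the scale of log2(RPKM + 1), which understates the change of weakly expressed genes, the difference was 4.13 with a standard error of 0.50 from limma, rank 17 of the 156 genes of the Up table, whose median was 2.03.

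*NATA1* mRNA showed a weaker difference that the replicates did not separate. It was at 77.9 and 334 RPKM in the *msil2/4* libraries, against 30.1 and 90.3 RPKM in the Col-0 libraries. *msil2/4* replicate 1 thus lay below Col-0 replicate 2, at 0.863 of its value, and the high *msil2/4* mean came from replicate 2. The means were 206 ± 181 RPKM in *msil2/4* and 60.2 ± 42.6 RPKM in Col-0 (SD, n = 2 each), a ratio of 3.42. The log2 difference was 1.61 with a standard error of 0.86, rank 129 of 156. This standard error is drawn toward the spread of the other listed genes, which were selected for this contrast. The replicate SD of *NATA1* itself on this scale was 1.30. Only 5 genes of the Up table had a larger standard error. Without *msil2/4* replicate 2 the difference was 0.57 and without Col-0 replicate 1 it was 0.83, while without *msil2/4* replicate 1 it was 2.65 and without Col-0 replicate 2 it was 2.39. The ratio of the authors' values per genotype (190 RPKM in *msil2/4* and 64.8 RPKM in Col-0) was 1.55 on the log2 scale, just inside the limit of 1.5 that defines the table. Of the 156 genes, 10 had a lower ratio, and genes outside the limit were not analysed here.

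*BGLU31* mRNA was close to the lower end of the measurable range in Col-0 and low but present in *msil2/4*. It was at 8.01 and 5.84 RPKM in the *msil2/4* libraries, against 0.06 and 0.29 RPKM in the Col-0 libraries. The genotypes did not overlap, and the lowest *msil2/4* library stood 20.1 times above the highest Col-0 library. The means were 6.93 ± 1.53 RPKM in *msil2/4* and 0.175 ± 0.163 RPKM in Col-0 (SD, n = 2 each), a ratio of 39.6. This ratio rests on very few Col-0 reads. If all 30000000 reads that the labels state for a library had mapped, 1 read on the transcript of 1800 bases would equal 0.0185 RPKM, and the Col-0 values would stand for about 3.24 and 15.7 reads, against about 433 and 315 reads in *msil2/4*. The log2 difference of 2.75 (standard error 0.34) depended on the pseudocount, and was 4.80 with a pseudocount of 0.1 and 5.56 with 0.01.

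**Figure D1:**
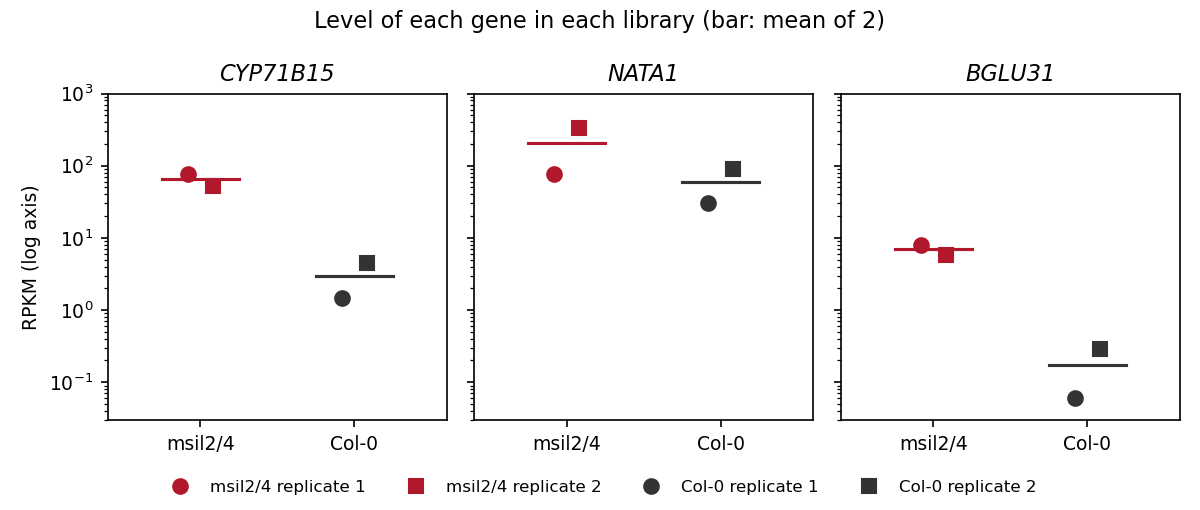
Level of *CYP71B15*, *NATA1* and *BGLU31* in each library, in RPKM on a log axis shared by the panels. Red points are *msil2/4* and dark points Col-0, circles are replicate 1, squares replicate 2, and bars the mean of 2 libraries. The genotypes are apart for *CYP71B15* and *BGLU31*, while *NATA1* in *msil2/4* replicate 1 (77.9 RPKM) lies below Col-0 replicate 2 (90.3 RPKM).

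In 2 of the 3 genes both *msil2/4* libraries were thus above both Col-0 libraries. The same held for 154 of the 156 genes of the Up table (98.7%), which were selected for higher values in *msil2/4* on these libraries, so nothing about the 3 genes is read from this count. *NATA1* is 1 of the 2 exceptions.

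**Figure D2:**
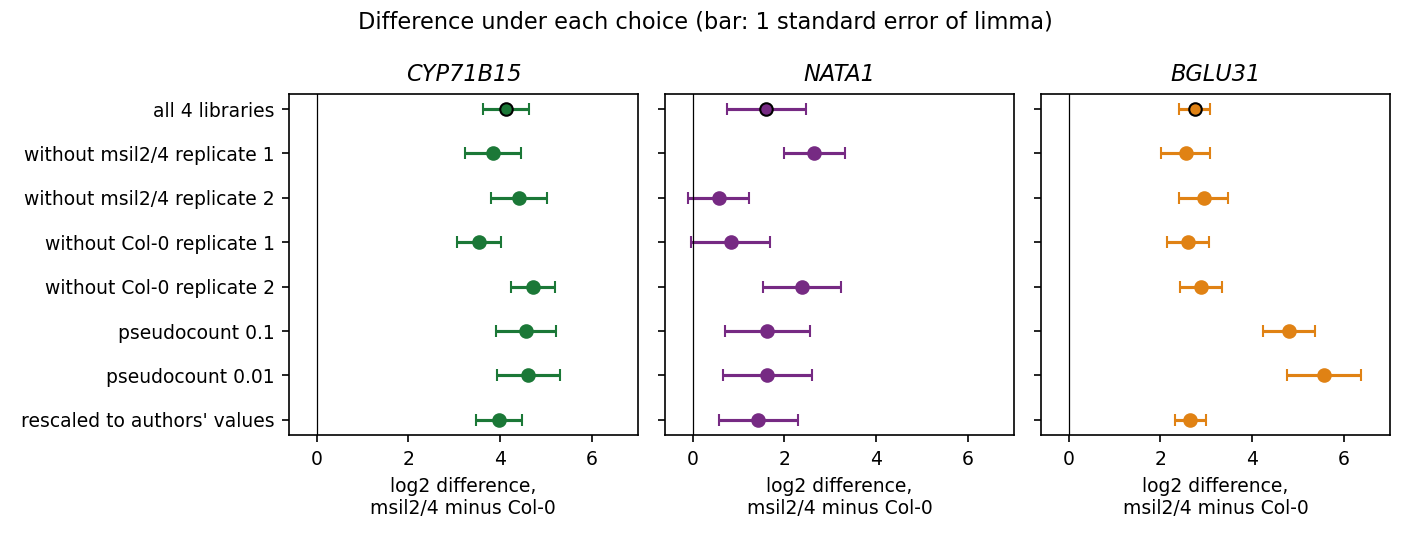
Log2 difference of *msil2/4* minus Col-0 for each gene, with all 4 libraries, with each library left out, with smaller pseudocounts and after rescaling to the authors' values per genotype (x axis, log2 units, bars 1 standard error from limma). *CYP71B15* stayed between 3.55 and 4.71 when a library was left out, *NATA1* ranged from 0.57 to 2.65, and *BGLU31* was 4.80 and 5.56 with the smaller pseudocounts.

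The genes also differed in abundance. Among the 156 genes of the Up table, *NATA1* had the second highest mean in Col-0 and rank 11 in *msil2/4*, where the table's median was 18.4 RPKM. *CYP71B15* had rank 69 in Col-0, near the table's median of 2.32 RPKM, and rank 29 in *msil2/4*. *BGLU31* had rank 153 in Col-0 and rank 133 in *msil2/4*, so its mRNA stayed below that of most listed genes in both genotypes. Ranked by the difference in log2(RPKM + 1), *CYP71B15* was at rank 17, *BGLU31* at rank 47 and *NATA1* at rank 129. By the ratio of the authors' values per genotype, where no pseudocount enters, the order changed. *BGLU31* was then at rank 17, *CYP71B15* at rank 29 and *NATA1* at rank 146.

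**Figure D3:**
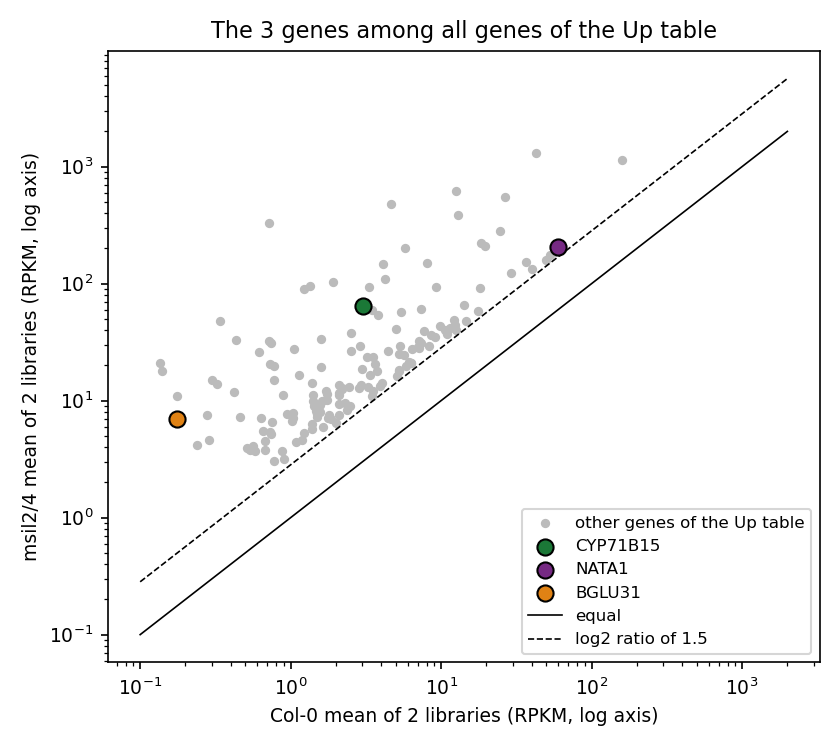
Mean RPKM in *msil2/4* (y axis) against Col-0 (x axis) for the 156 genes of the Up table, both on log axes, each point the mean of 2 libraries. The solid line marks equal values and the dashed line a log2 ratio of 1.5. *NATA1* lies at high abundance near the dashed line (206 RPKM in *msil2/4* and 60.2 RPKM in Col-0), *CYP71B15* far above it (65.0 RPKM in *msil2/4* and 3.01 RPKM in Col-0) and *BGLU31* at the low end of Col-0 (6.93 RPKM in *msil2/4* and 0.175 RPKM in Col-0).

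Replicates of a genotype spread in another way for *NATA1* than for *CYP71B15* and *BGLU31*. *NATA1* was higher in replicate 2 than in replicate 1 in both genotypes, 4.28 times in *msil2/4* and 3.0 times in Col-0, or 2.08 and 1.55 on the log2(RPKM + 1) scale. These spreads had ranks 7 and 10 of 156 by size, where the median spread of the table was 0.44 in *msil2/4* and 0.40 in Col-0. *CYP71B15* went opposite ways, with replicate 2 at 0.677 of replicate 1 in *msil2/4* and at 3.09 times replicate 1 in Col-0. *BGLU31* did likewise, at 0.729 of replicate 1 in *msil2/4* and 4.83 times replicate 1 in Col-0, where both values were under 1 RPKM. Over the Up table, replicate 2 was higher in both genotypes for 55 genes and lower in both for 29, and 42 genes had the pattern of *CYP71B15* and *BGLU31*. Whether same-numbered libraries were grown or prepared together was not given in the sources used here, and a part of such handling in the *NATA1* values was not tested.

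**Figure D4:**
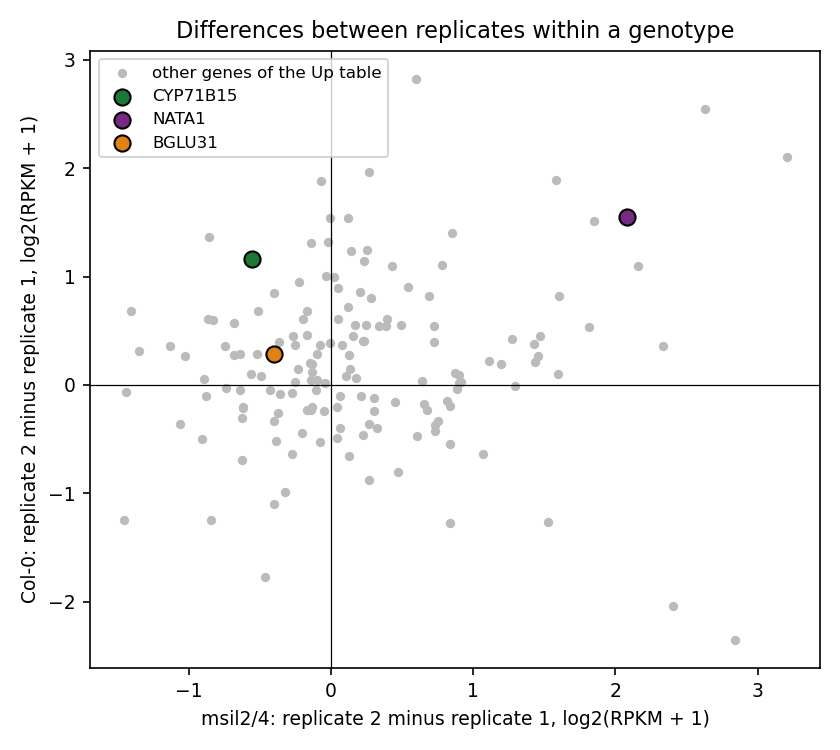
Replicate 2 minus replicate 1 on the log2(RPKM + 1) scale, in *msil2/4* (x axis) and in Col-0 (y axis), for the 156 genes of the Up table. *NATA1* lies far to the upper right (2.08 and 1.55), and *CYP71B15* (-0.55 and 1.17) and *BGLU31* (-0.40 and 0.28) lie in the upper left.

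The closest relative of each enzyme was in neither table. Aligned with all other proteins encoded in the TAIR10.1 annotation, CYP71B15 was closest to CYP71B28 (AT1G13090), with 72.8% identity over 470 residues. NATA1 had a single relative, NATA2 (AT2G39020), with 78.4% identity over 222 residues, encoded on the same strand 1614 bases upstream. BGLU31 was closest to BGLU32 (AT5G24550), with 92.5% identity over 534 residues, encoded on the same strand 4030 bases away, and next to BGLU30 (AT3G60140, also *DIN2*), a gene known to be induced in the dark, with 66.9% identity. Such copies can share reads. Of all stretches of 75 bases, the read length, in each longest transcript, 0 of 1022 matched elsewhere in the genome or in other transcripts at up to 2 mismatches for *NATA1*, 15 of 1703 for *CYP71B15*, in *CYP71B28*, and 55 of 1726 (3.19%) for *BGLU31*, in *BGLU32*. Most of each mRNA was therefore distinct at this read length, although how the authors' counting shared the remaining reads was not tested.

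Few genes of either table are expected in any short list, since 231 of 27444 protein-coding genes annotated in RefSeq (0.842%) were listed at all, and 76 (0.277%) in the Down table. The counts below are therefore given as a description, from which nothing is read about a pathway as a whole. Of 16 genes of camalexin synthesis and export, only *CYP71B15* was listed. The other 15, in neither table, include *CYP79B2* and *CYP79B3*, which turn tryptophan into indole-3-acetaldoxime, *CYP71A13*, which dehydrates it to indole-3-acetonitrile, the glutathione transferase gene *GSTF6* and the exporter gene *ABCG34*. None of 8 regulators was listed, *WRKY33* and *ANAC042* included, nor any of 9 tryptophan synthesis genes or 10 genes of other indolic defense compounds, such as *CYP83B1*, *CYP81F2* and *PEN2*. The 8 regulators leave out other WRKY genes that were listed. *WRKY18* is in the Down table, at 37.3 and 43.1 RPKM in *msil2/4* and 278 and 137 RPKM in Col-0. *WRKY38*, *WRKY46*, *WRKY51*, *WRKY62* and *WRKY75* are in the Up table. A role of these WRKY genes in the *CYP71B15* values was not tested. Of 24 genes of ornithine, arginine and polyamine metabolism, *NATA1* was the only one listed, with the arginine decarboxylase genes *ADC1* and *ADC2* and the arginase genes *ARGAH1* and *ARGAH2* in neither table. The 24 genes leave out the copper amine oxidase gene *CuAOalpha3* (AT1G31710), which is in the Up table and is described below. Of 19 genes of jasmonate synthesis and jasmonate markers of leaves, among them *LOX2*, *MYC2*, *VSP2* and *TAT3*, none was listed. That list leaves out the plant defensins, markers of combined jasmonate and ethylene responses, of which *PDF1.2A* (AT5G44420), *PDF1.2C* (AT5G44430) and *PDF1.3* (AT2G26010) are in the Up table. *PDF1.2A*, named after its values were seen, was at 363 and 2251 RPKM in *msil2/4* and 11.7 and 73.2 RPKM in Col-0. All 3, like *NATA1*, were higher in replicate 2 than in replicate 1 in both genotypes. This held for 55 of the 156 genes of the Up table, so no link to *NATA1* is read from it. Of the 47 beta-glucosidase genes *BGLU1* to *BGLU47*, *BGLU31* alone was listed. In all, 3 of 132 genes were in the Up table, 129 were in neither table and none was in the Down table. Those 3 are the members themselves, which were picked from the Up table. Their count was thus fixed in advance and is not compared with the shares above. A gene in neither table did not pass the authors' limits or their filter on low values, and its own values were not analysed here.

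The pattern of *NATA1* over the libraries was unlike those of *CYP71B15* and *BGLU31*. The patterns of *CYP71B15* and *BGLU31* ran in the same directions but differed in size. Profiles of log2(RPKM + 1), centered on each gene's mean over the 4 libraries, were compared by Euclidean distance among the 234 listed genes. *BGLU31* stood at rank 29 of 233 among the genes nearest to *CYP71B15* (distance 1.52), and *NATA1* at rank 149 (distance 3.15). The distance of *BGLU31* holds for a pseudocount of 1, which exceeds its Col-0 values and reduces the size of its change. The genes nearest to *CYP71B15* were AT4G12490, of the pEARLI1-like lipid transfer proteins, the calcium-binding protein gene *CML47* (AT3G47480), AT4G38080, annotated as a hydroxyproline-rich glycoprotein, and the peroxidase gene *PER38* (AT4G08780), with distances of 0.38 to 0.67. *PER38*, for example, was at 54.0 and 54.8 RPKM in *msil2/4* and 2.22 and 5.41 RPKM in Col-0.

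The genes nearest to *NATA1* were *CuAOalpha3* (AT1G31710), which encodes a copper amine oxidase, an enzyme type that oxidizes putrescine and other amines, then *GH3.6* (AT5G54510, also *DFL1*), which encodes an auxin-conjugating enzyme, AT4G29700, annotated as alkaline phosphatase-like, and the YABBY transcription factor gene *YAB2* (AT1G08465). *CuAOalpha3* was at 12.9 and 37.4 RPKM in *msil2/4* and 4.30 and 6.25 RPKM in Col-0, and it is not a member of the list of polyamine genes above. Like *NATA1*, all 4 were highest in *msil2/4* replicate 2, but in Col-0 replicate 2 each lay further below its own mean than *NATA1* did, and their distances of 0.94 to 1.18 exceeded those found for the other enzymes.

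The genes nearest to *BGLU31* were *PR5* (AT1G75040), a marker of salicylic acid responses, the lipid transfer-like gene *EARLI1* (AT4G12480), *HIPP03* (AT5G60800), of a heavy metal-binding protein family, and the AAA-ATPase gene AT3G28580, with distances of 0.21 to 0.41. *PR5* was at 1397 and 873 RPKM in *msil2/4* and 143 and 173 RPKM in Col-0, far above *BGLU31* in level. With a pseudocount of 0.1 none of these 4 was among the 4 nearest to *BGLU31*, whose low Col-0 values then weigh more. With 4 points per profile these distances are descriptions and carry no test.

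**Figure D5:**
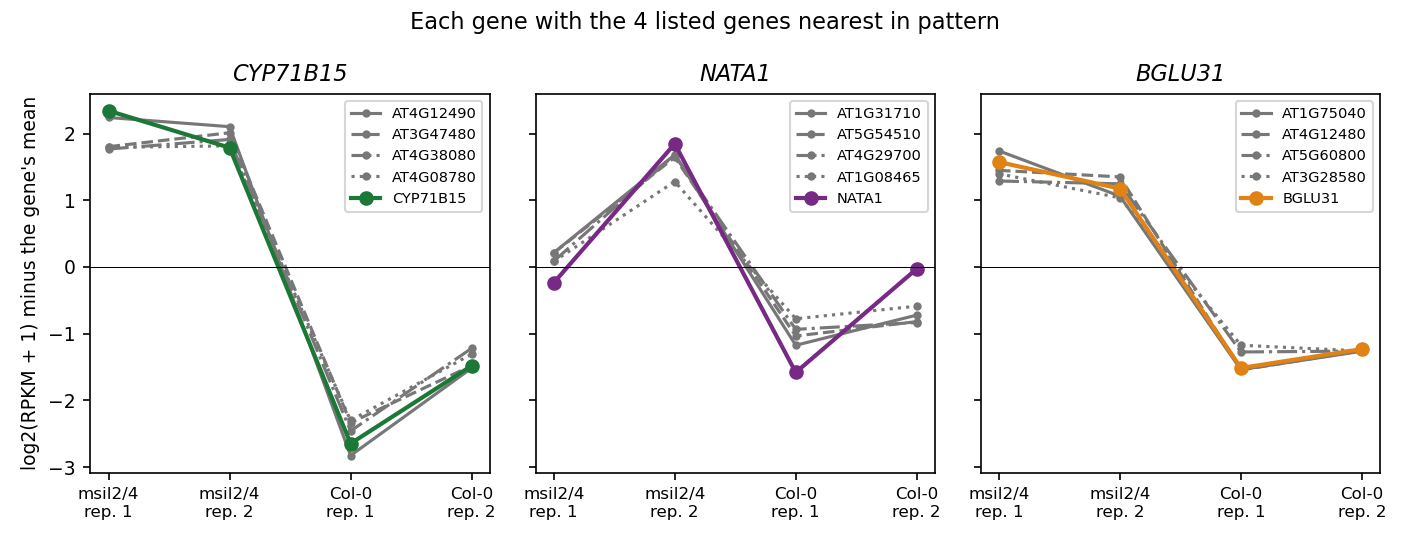
Log2(RPKM + 1) minus each gene's mean over the 4 libraries (y axis), by library (x axis), for each of the 3 genes (color) and the 4 listed genes nearest to it (grey). *CYP71B15* and *BGLU31* are high in both *msil2/4* libraries with their neighbors in pattern, whereas *NATA1* peaks in *msil2/4* replicate 2 and lies near its own mean in Col-0 replicate 2, above its 4 neighbors in pattern.

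On the chromosome, *BGLU31* was next to another up-regulated gene. Its neighbor *DMR6* (AT5G24530), which encodes a salicylic acid hydroxylase, lies tail to tail with it, 1279 bases from its 3′ end, and was at 156 and 161 RPKM in *msil2/4* and 58.2 and 41.1 RPKM in Col-0, a ratio of means of 3.20. Among the 10 protein-coding genes flanking *BGLU31*, 5 on each side, *DMR6* was the only one in a table, and *BGLU32* on the other side was not. None of the 10 genes flanking *CYP71B15* or *NATA1* was listed, and their nearest listed genes on the chromosome lay 200 kb and 60.8 kb away.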

How the data were processed

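As given in the methods and, for tool versions, in the submitters' processing notes, single-end reads of 75 bases were aligned by the authors to TAIR10 with TopHat2 2.0.7 and Bowtie2 2.3.4, transcripts were quantified with Cufflinks 2.2.1 and genotypes compared with Cuffdiff (no version given), and genes were kept beyond a log2 fold change of 1.5 in either direction. The limit of 0.05 is on the P value in the table headings and on the FDR in the paper's text. The study names a filter against transcripts under 1 RPKM in a library, yet 36 genes of the Up table have even a Col-0 mean under it. Genes with a higher mean but a single library under 1 RPKM are not in that count. The labels and the methods name different stranded library kits. The authors deposited RPKM values with 2 decimals for each library, one RPKM value per genotype, and their own log2 fold changes, which hold their comparison and were not used. The authors' values per genotype were a median of 0.938 times the *msil2/4* library mean and 1.06 times the Col-0 library mean, so a scaling was applied that is not given in the sources used here. Total reads are stated as 30000000 per library in the labels. Counts per gene were not recovered, so counting error is unknown and no count model was used.

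Library values were transformed as log2(RPKM + 1), and differences with standard errors were fitted with limma 3.58.1 in R 4.3.3 over all 234 listed genes (prior of 3.27 degrees of freedom). The procedure was run on simulated data in which all genes had the same error spread. That setting cannot vouch for the standard error of a gene with a wide spread, such as *NATA1*. No p-value is given, because the genes were listed for this contrast. The members and 7 gene lists were chosen with earlier results of these data known. Named genes were the 3 members, the 4 listed genes nearest to each in profile, listed members of the lists and each closest protein. *DMR6*, the unlisted pathway genes and the WRKY genes outside the lists were named afterwards. Gene models, windows and proteins came from RefSeq TAIR10.1, where all 234 identifiers were found, with Python 3.11.15, Biopython 1.88 and BLAST+ 2.17.0. Alternatives were pseudocounts of 0.1 and 0.01, rescaling to the authors' values, ratios without a pseudocount, a replicate block, a filter at a mean of 1 RPKM and each library left out.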

Additional observations from a re-analysis of the deposited data

How the results depend on the processing

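The difference kept its sign for the 3 genes under every alternative run. Of 49 alternative values, 39 moved by less than the replicate SD or, for counts, by less than 1.5 times. This tally does not measure robustness, since the replicate block and the filter could not move a difference. The replicate SD of *NATA1* was 1.30, so even its values of 0.57 and 2.65 with a library left out counted as unmoved. The *BGLU31* difference of 2.75 was 4.80 and 5.56 with pseudocounts of 0.1 and 0.01, 5.15 from the authors' values per genotype and 5.31 from arithmetic means, and its replicate difference in Col-0 (0.28) was 1.29 with a pseudocount of 0.1, since a pseudocount of 1 exceeds its Col-0 values. With each library left out, differences ranged from 3.55 to 4.71 for *CYP71B15*, 0.57 to 2.65 for *NATA1* and 2.55 to 2.95 for *BGLU31*, and 232 to 234 listed genes had genotypes that did not overlap. Of the 4 genes nearest to each gene, the pseudocount of 0.1 kept 2 for *CYP71B15* and 0 for *BGLU31*, and Pearson correlation in place of distance kept 0 for *CYP71B15*, 2 for *NATA1* and 0 for *BGLU31*. The replicate block cannot change the differences of 4.13, 1.61 and 2.75, because each genotype has both replicate numbers. Its standard error was 0.51 for each of the 3 genes. That value is shared over genes and does not measure the spread of a single gene such as *NATA1*. Replicate differences of the genotypes correlated at 0.067 over the 234 genes, which were selected for the contrast. Whether same-numbered libraries were paired was not tested. The filter at a mean of 1 RPKM removed no gene. With 2 libraries per genotype and unknown counts, a value such as 0.06 RPKM cannot be given a counting interval.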
